A study of Drosophila melanogaster with 36 samples.

Results

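The 9 genes described here build and supply the fly eye and were chosen by their FlyBase symbols: retinin and Crys of the lens, chp and eys of the rhabdomeres, ninaA, ninaB and ninaD of rhodopsin and its chromophore, and the photoreceptor transcription factors Pph13 and gl. They are 9 of 17494 genes listed in the head and muscle files and 9 of 17612 in the whole-fly files. Poly-A RNA of adult Drosophila melanogaster was sequenced in a study of GCN5, a lysine acetyltransferase, in ageing and in mutant flies. Heads of the strain WT (5905) were taken at 3, 15, 30 and 45 d of age, with 3 libraries at each age. Muscles of the same strain were taken at the same ages, also with 3 libraries at each, and are used here for levels alone. Whole flies were all 3 d old, with 4 libraries each of the transgene group, the gcn5 mutant and WT (5905). The mutant carried gcn5c450/c450, labelled loss-of-function. The transgene group carried gcn5c450, tub-GAL4/c450, UAS-HA-Gcn5, so it had the mutant allele on both chromosomes and HA-tagged Gcn5 under a tubulin driver, which is active in nearly all cells, and the labels call it overexpression. The sex of the flies and the making of the c450 allele were not given in the sources used here.

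In the fly eye, cone and pigment cells secrete the corneal lens, and the photoreceptors beneath it hold their rhodopsin in rhabdomeres, tight stacks of microvilli that face a shared extracellular space. Rhodopsin is an opsin protein bound to a chromophore, 3-hydroxyretinal, which flies must make from carotenoids in their food. Without the chromophore or its own chaperone, the main opsin NinaE does not reach the rhabdomere, and loss of rhodopsin is what mutants of the nina genes share.

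Counts in genes came to 3176508 to 4361043 per head library and 1621787 to 2821722 per whole-fly library. Levels are counts-per-million (CPM) of library sizes scaled by TMM, a trimmed mean of ratios between libraries, and changes are log2 fold changes ± SE from edgeR's quasi-likelihood test, called past a Benjamini-Hochberg adjusted p of 0.05 over all genes tested. That was 9035 genes in heads and 10723 in whole flies, with 8 of the 9 genes in both. The labels do not say whether libraries came from separate flies or cultures, so p-values measure the spread between libraries, which may be technical. Gcn5 itself stood at 2968 ± 166 CPM in the transgene group, 36.8 ± 0.559 CPM in the mutant and 35.9 ± 7.10 CPM in WT (SD, n = 4 each), so its RNA checks the transgene and not the mutant allele. Photoreceptor RNA was present in every head library, where the phototransduction list summed to 40660 to 86170 CPM, beside 625.8 to 1805 CPM in muscle libraries. The main opsin gene ninaE took 33.4 to 45.9% of the counts of that list in heads.

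The genes lie on the arms 2L, 3L and 3R in the r6.36 annotation of the whole-fly files. Per kilobase of exon, retinin had the highest level of the 9 in 45 d heads, at 497 ± 121 CPM per kb, and chp followed at 234 ± 25.0 CPM per kb (SD, n = 3). ninaB came next, at 71.1 ± 2.93 CPM per kb, each of these genes being clear of its neighbours in every library. eys, Pph13 and gl, at 26.3 ± 3.36, 23.4 ± 4.83 and 20.5 ± 5.195 CPM per kb, overlapped, while ninaD at 6.33 ± 0.595 and Crys at 0.142 ± 0.123 CPM per kb lay below all of them. In 3 d heads the order began in the same way, with retinin at 2125 ± 516, chp at 413 ± 23.4, ninaB at 69.3 ± 1.26 and eys at 53.9 ± 6.78 CPM per kb, none of them overlapping. gl at 22.0 ± 2.51, Pph13 at 21.7 ± 2.60, ninaD at 17.96 ± 4.09 and Crys at 6.55 ± 7.91 CPM per kb followed, each overlapping the next.

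The lens genes retinin and Crys, the rhabdomere genes chp and eys and the carotenoid receptor gene ninaD fell in ageing heads, while the carotenoid oxygenase ninaB and both transcription factors were not called between 45 d and 3 d. Of the 8 genes tested, 5 fell and 0 rose at 45 d against 3 d, where 18.2% of all genes tested fell and 17.5% rose. Their median log2 change was -0.93, beside 0.01 over all genes tested. At 15 d against 3 d the same count held, 5 lower and 0 higher, beside 7.85% of all genes lower and 5.0% higher. DESeq2 also gave 0 higher in both, and of the 8 genes Pph13 at 15 d was the 1 that was higher at an unadjusted p under 0.05. Both comparisons use the same 3 d libraries. Because whole heads were sequenced, fewer cells of a type and less RNA per cell cannot be told apart.

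retinin (FBgn0040074, 3L:16331933-16332789, plus strand) encodes a protein of the corneal lens. Its level was 2157, 1562 and 1367 CPM in the 3 d head libraries, 640, 583 and 673 CPM at 15 d, 547, 527 and 561 CPM at 30 d, and 306, 385 and 498 CPM at 45 d. Every 3 d library lay far above every older one, and the 45 d libraries lay below all others. The log2 change was -2.10 ± 0.16 at 45 d against 3 d, a level 4.28-fold lower (adjusted p = 1.52e-07). At 15 d against 3 d it was -1.42 ± 0.16 (adjusted p = 3.26e-05), or 67.8% of the log2 change to 45 d. retinin also fell at 45 d against 15 d, by 0.68 ± 0.16 on the log2 scale (adjusted p = 0.012), a call that was lost under both photoreceptor scalings described below (-0.02 and -0.12), without 45 d replicate 1 (adjusted p = 0.056), without 15 d replicate 3 (adjusted p = 0.0544), and with robust dispersions (adjusted p = 0.0576).

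Crys (FBgn0005664, 2L:11944129-11947131, plus strand) encodes drosocrystallin, another lens protein. Its counts were 105, 15 and 16 in the 3 d libraries, 6, 2 and 4 at 15 d, 1, 3 and 2 at 30 d, and 2, 2 and 0 at 45 d. Replicate 1 at 3 d, at 35.5 CPM, stood far above the other 3 d libraries, at 4.17 and 4.82 CPM, and all of them lay above every older library. Its fitted log2 change was -5.25 ± 0.99 at 45 d against 3 d (adjusted p = 0.000605) and -3.74 ± 0.81 at 15 d against 3 d (adjusted p = 0.00645). Without 3 d replicate 1 these values were -3.58 and -2.07, both still past the threshold, so 1 library set much of their size. With robust dispersions the 15 d change missed the threshold (adjusted p = 0.054).

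chp (FBgn0267435, 3R:31204180-31210730, minus strand) encodes chaoptin, the adhesion protein on photoreceptor microvilli that holds a rhabdomere together. Its level was 2090, 1881 and 2064 CPM at 3 d, 1355, 1370 and 1453 CPM at 15 d, 1290, 1448 and 1873 CPM at 30 d, and 1024, 1267 and 1132 CPM at 45 d. All 3 d libraries lay above all others, and 30 d replicate 3 came just below the lowest of them. On the log2 scale the change was -0.82 ± 0.11 at 45 d against 3 d (adjusted p = 3.94e-05) and -0.53 ± 0.11 at 15 d against 3 d (adjusted p = 0.00594).

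eys (FBgn0031414, 2L:2311680-2358944, plus strand) encodes the secreted protein eyes shut, also called spacemaker, which fills and opens the space between rhabdomeres. Its level was 518, 403 and 450 CPM at 3 d, 223, 237 and 234 CPM at 15 d, 269, 248 and 275 CPM at 30 d, and 226, 249 and 193 CPM at 45 d. The 3 d libraries stood apart, and the older ages overlapped except for 15 d and 30 d. edgeR gave a log2 change of -1.03 ± 0.10 at 45 d against 3 d (adjusted p = 1.09e-06) and -0.98 ± 0.10 at 15 d against 3 d (adjusted p = 1.68e-05), so 94.7% of the change was present by 15 d. For chp and Crys that share was 64.9 and 71.4%.

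**Figure D1:**
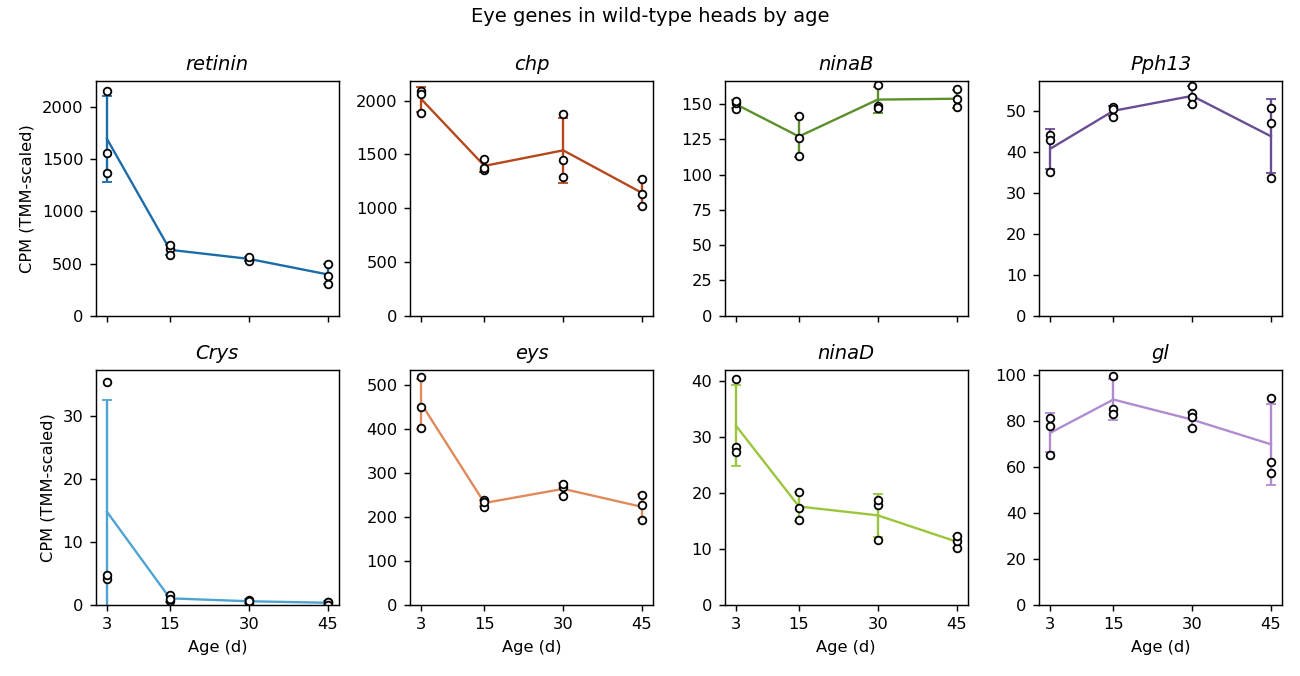
Level of 8 eye genes (y axis, CPM of TMM-scaled libraries, from 0) against age in days (x axis) in wild-type heads. Points are the 3 libraries of an age, lines join the means and bars are SD. retinin, Crys, chp, eys and ninaD stand highest at 3 d, while ninaB stays between 113 and 164 CPM at all 4 ages.

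ninaD (FBgn0002939, 2L:18081628-18083608, plus strand) encodes a class B scavenger receptor that takes up dietary carotenoids, mostly in the midgut. Its level in heads was 40.5, 28.4 and 27.4 CPM at 3 d, 20.3, 17.3 and 15.2 CPM at 15 d, 11.6, 17.8 and 18.7 CPM at 30 d, and 10.2, 11.4 and 12.3 CPM at 45 d. All 3 d libraries lay above all others, and the 45 d libraries lay below those of 15 d. The log2 change was -1.50 ± 0.19 at 45 d against 3 d (adjusted p = 1.86e-05) and -0.86 ± 0.18 at 15 d against 3 d (adjusted p = 0.00492), or 57.4% of the later value. In muscles, which were not tested, the mean level of ninaD also went down, from 47.5 CPM at 3 d to 11.1 CPM at 45 d.

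ninaB (FBgn0002937, 3R:13700565-13703164, plus strand) encodes the carotenoid oxygenase and isomerase that cleaves carotenoids to retinal. Its level was 147, 151 and 152 CPM at 3 d, 142, 113 and 126 CPM at 15 d, 164, 149 and 147 CPM at 30 d, and 160, 153 and 148 CPM at 45 d. The 15 d libraries were lower than those of every other age without overlap, and the other 3 ages overlapped. Its fitted log2 change was 0.04 ± 0.08 at 45 d against 3 d (adjusted p = 0.768) and -0.24 ± 0.08 at 15 d against 3 d (adjusted p = 0.0691). ninaB was 1 of 8 genes called higher at 45 d against 15 d, by 0.28 ± 0.08 (adjusted p = 0.0467), and retinin the 1 called lower, beside 5.14% of all genes higher and 4.01% lower. The ninaB call was lost with DESeq2 (adjusted p = 0.0879), with median-of-ratios size factors (adjusted p = 0.0542), with no filter on low counts (adjusted p = 0.054), with only those ages in the fit (adjusted p = 0.0851) and without 4 of the 6 libraries compared, 45 d replicates 1 and 2 and 15 d replicates 2 and 3 (adjusted p of 0.118 to 0.214). The ratio of ninaB to ninaD counts was 3.62 to 5.54 in 3 d heads, 6.53 to 8.29 at 15 d, 7.88 to 14.1 at 30 d and 12 to 15.7 at 45 d.

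ninaA (FBgn0002936, 2L:877302-878270, plus strand) encodes the cyclophilin that escorts the main rhodopsin through the secretory pathway. It was listed at 0 in all 36 libraries. All 871 bases of its exons, or 100%, also lie in exons of CG15824 on the opposite strand. In whole flies, counted without strand per the file headers, read pairs there cannot be assigned to either gene, and no level of ninaA is given. The rhodopsin chaperone Xport-A was listed at 0 as well, and 100% of its exon bases lie in exons of other genes. The other overlaps were small, 0.8% of eys exon bases and 6.7% of those of ninaB.

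Pph13 (FBgn0023489, 2L:577486-579549, plus strand) encodes a homeodomain factor needed for rhabdomere growth and opsin expression. Its level was 44.2, 43.1 and 35.3 CPM at 3 d, 48.7, 51.1 and 50.6 CPM at 15 d, 56.3, 53.4 and 51.7 CPM at 30 d, and 33.6, 47.2 and 50.9 CPM at 45 d. The 3 d libraries lay below those of 15 d and 30 d, and the 45 d libraries overlapped those of 3 d and 15 d but not of 30 d. On the log2 scale the change was 0.10 ± 0.13 at 45 d against 3 d (adjusted p = 0.595) and 0.30 ± 0.13 at 15 d against 3 d (adjusted p = 0.142).

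gl (FBgn0004618, 3R:18367927-18372738, minus strand) encodes Glass, the zinc finger factor that photoreceptors need to form. Its level was 65.2, 77.8 and 81.4 CPM at 3 d, 99.7, 84.9 and 83.1 CPM at 15 d, 83.3, 76.8 and 81.5 CPM at 30 d, and 57.3, 62.1 and 89.99 CPM at 45 d. Of the 45 d libraries, replicate 3 was above and the other pair below every 3 d library. edgeR gave a log2 change of -0.12 ± 0.14 at 45 d against 3 d (adjusted p = 0.553). Without 45 d replicate 3 it was -0.33 (adjusted p = 0.0294), and at 45 d against 15 d it was then -0.58 (adjusted p = 0.00202), against -0.37 ± 0.13 (adjusted p = 0.102) with that library.

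Between 15 and 30 d and between 30 and 45 d, edgeR's quasi-likelihood test called 0 of the 8 genes, while 1 of them in the earlier step and 5 in the later had an unadjusted p under 0.05. In the step to 30 d it called 0.963% of all genes higher and 0.852% lower, and in the step to 45 d 0.465% higher and 0.111% lower. In the step to 45 d the largest fitted changes among genes with over 10 CPM were -0.50 ± 0.21 for ninaD, -0.46 ± 0.16 for retinin and -0.43 ± 0.11 for chp. DESeq2 called chp lower in that step, where it called 0.21% of all genes lower, and gave 0 calls of the 8 in the step to 30 d.

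Other genes of the same pathways, in lists written from known functions, divided in the same heads. Of the chromophore list, which adds ninaG, santa-maria, pinta, Pdh and rdhB to ninaB and ninaD, 2 of 7 fell and 0 rose at 45 d against 3 d, with a median of 0.04. Pdh, a retinol dehydrogenase of pigment cells, fell with ninaD, at 1026 ± 577 CPM at 45 d and 1808 ± 289 CPM at 3 d (SD, n = 3), with overlapping libraries (log2 change -0.82 ± 0.245, adjusted p = 0.0149 from edgeR), a call that 5 of 15 alternatives lost, DESeq2 (adjusted p = 0.0626), robust dispersions (adjusted p = 0.0935), and leaving out 45 d replicate 1 or 2 or 3 d replicate 1 (adjusted p of 0.0587 to 0.0777). The oxidoreductase ninaG, the scavenger receptor santa-maria, the retinoid-binding pinta and the dehydrogenase rdhB had log2 changes of 0.10, 0.14, 0.37 and -0.04 that were not called. pinta rose at 15 d against 3 d, by 1.05 ± 0.14 (adjusted p = 0.000246), and fell by 0.68 ± 0.14 at 45 d against 15 d (adjusted p = 0.00463), and only the second call was lost, under the photoreceptor scalings.

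Of the 11 genes of the rhabdomere list, 8 fell and 1 rose at 45 d against 3 d, with a median of -0.66. Besides chp and eys these were prom at -0.87 ± 0.10, the membrane protein prominin of the microvilli, the rhabdomeral myosin ninaC at -0.87 ± 0.12, and the calcium-binding Cpn at -0.96 ± 0.15. The lipid transfer protein rdgB fell by 0.66, Patj by 0.57 and WASp by 0.24, and Moe, a linker of actin to the membrane, rose by 0.22. Of 15 alternatives, 10 lost the call of WASp and 2 or fewer that of each of the others named here, at least 1 photoreceptor scaling among them for prom, rdgB and Patj, and WASp was then above 0 (0.215). Of the 15 photoreceptor transcription factors tested, toy, sv and pros fell, by 0.32, 0.24 and 0.43, and lz rose by 0.88 ± 0.16 (adjusted p = 0.0004), while the other 11 were not called. lz kept its call under all 15 alternatives, and toy, pros and sv lost theirs under 3, 6 and 10 of them, their log2 changes being above 0 under the photoreceptor scalings. Of the 8 genes of the rhodopsin folding list 5 could be tested, and 2 fell, inaF-B by 0.73 and the secretory GTPase Rab1 by 0.235, the second call being lost under 7 of 15 alternatives and Rab1 being above 0 under photoreceptor scaling (0.212). Of 26 phototransduction genes, 16 fell and 3 rose, with a median of -0.53, and ninaE itself, at 20359 CPM at 45 d and 25657 CPM at 3 d, was not called (-0.33 ± 0.17, adjusted p = 0.144).

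Cpr72Ec, a cuticle protein gene of the lens list, moved the other way from retinin. It had 166, 250 and 851 CPM in the 45 d heads, given from lowest to highest, against 134 to 197 CPM in the 3 d heads, so the lowest 45 d library lay within the 3 d range. Its log2 change was 1.36 ± 0.41 at 45 d against 3 d (adjusted p = 0.0152) and 1.68 ± 0.41 at 15 d against 3 d (adjusted p = 0.0121). Without 45 d replicate 3, the library of 851 CPM, the first was 0.34 (adjusted p = 0.22), and it was also lost without 3 d replicate 3 (adjusted p = 0.0605), with DESeq2 (adjusted p = 0.0525) and with robust dispersions (adjusted p = 0.101). The change at 15 d was lost without 15 d replicate 1 (adjusted p = 0.0582), without 3 d replicate 3 (adjusted p = 0.0527) and with robust dispersions (adjusted p = 0.0918). The ratio of Cpr72Ec to retinin counts was 0.0739 to 0.126 in 3 d heads, 0.606 to 1.05 at 15 d, 0.848 to 1.07 at 30 d and 0.542 to 1.71 at 45 d. The 3 d libraries stood apart, and the 3 older ages overlapped.

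**Figure D2:**
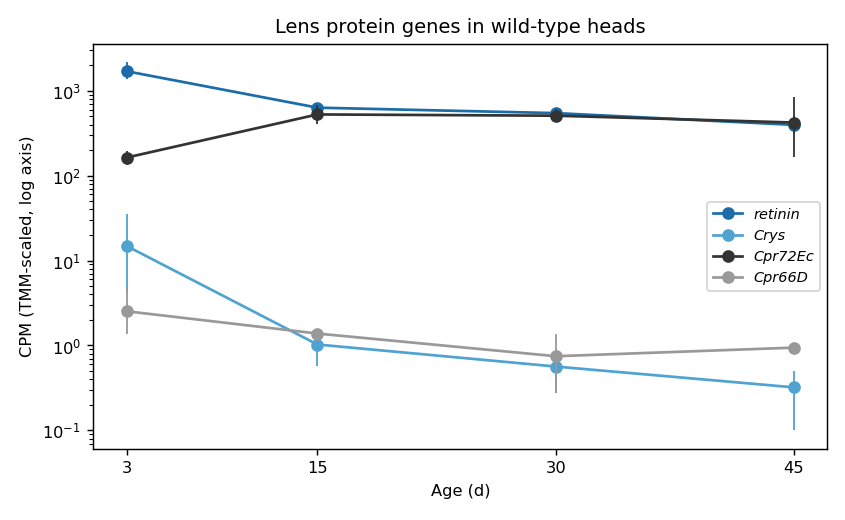
Mean level of the 4 genes of the lens list (y axis, CPM on a log axis) against age in days (x axis) in wild-type heads, with bars from the lowest to the highest of 3 libraries, cut at 0.1 CPM where the lowest was 0. retinin and Crys are highest at 3 d, and Cpr72Ec is lowest at 3 d and close to retinin from 15 d on.

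Markers of other cell types also moved with age in these heads. Of the neuron list 8 of 9 fell and 0 rose at 45 d against 3 d, its summed level being 3903 to 4251 CPM at 45 d and 6058 to 7577 CPM at 3 d. Of the muscle list 7 of 8 tested fell, with sums of 1675 to 1700 CPM at 45 d and 3210 to 4857 CPM at 3 d. In the retinal pigment cell list 4 of 6 tested rose and 1 fell, in the hemocyte list 3 of 7 rose and 3 fell, and in the glia list 3 of 7 rose and 3 fell. In the fat body list 2 of 5 tested rose and 1 fell, with sums of 8523 to 9621 CPM at 45 d and 7176 to 7720 CPM at 3 d, and in the gut list 2 of 5 rose. Of all genes tested 17.5% rose and 18.2% fell. Over the alternatives, 2 to 9 neuron genes and 6 to 7 muscle genes fell, and 0 rose. In the pigment cell, fat body and gut lists 3 to 5, 1 to 4 and 1 to 2 rose, and 1, 0 to 1 and 0 fell. Hemocyte genes had 3 to 4 higher and 0 to 3 lower, and glia genes 2 to 3 higher and 0 to 4 lower. The alternatives include the photoreceptor scaling described below, which called 41.9% of all genes higher and 2.21% lower. The yolk protein gene Yp1 of the fat body list had 10 to 22 counts in the 45 d libraries and 0 in every 3 d library. The pigment genes w and cn were at or near 0 in heads, with at most 4 counts in a library. Exons of other genes on the opposite strand cover 68.7% of cn exon bases, so its low count may not give its level. The part of these markers in the results was not tested.

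Scaling by photoreceptor transcripts instead of all RNA shifted the log2 changes of all 8 genes upward at 45 d against 3 d and left the same 5 genes lower. Scaling the head libraries by the summed counts of the phototransduction genes outside the 9 put the median log2 change of all genes at 0.455 at 45 d against 3 d, beside 0.01 with TMM, and called 41.9% of all genes higher and 2.21% lower. retinin at -1.71, Crys at -4.91, ninaD at -1.08, eys at -0.57 and chp at -0.38 were still called lower, chp with an adjusted p of 0.0499. ninaB at 0.50 (adjusted p = 0.0352) and Pph13 at 0.51 (adjusted p = 0.0315) were then called higher, as were 41.9% of all genes, and gl turned to 0.30 without a call. Leaving ninaE out of the sum, which was tried after seeing the data, gave the same calls. At 45 d against 15 d this scaling put the median of all genes at 0.706 and called 83.4% of them higher and 0.111% lower. With them chp at 0.42, eys at 0.67, ninaB at 1.0 and Pph13 at 0.48 were called higher, all but ninaB at or below that median, and retinin was no longer called (-0.02).

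**Figure D3:**
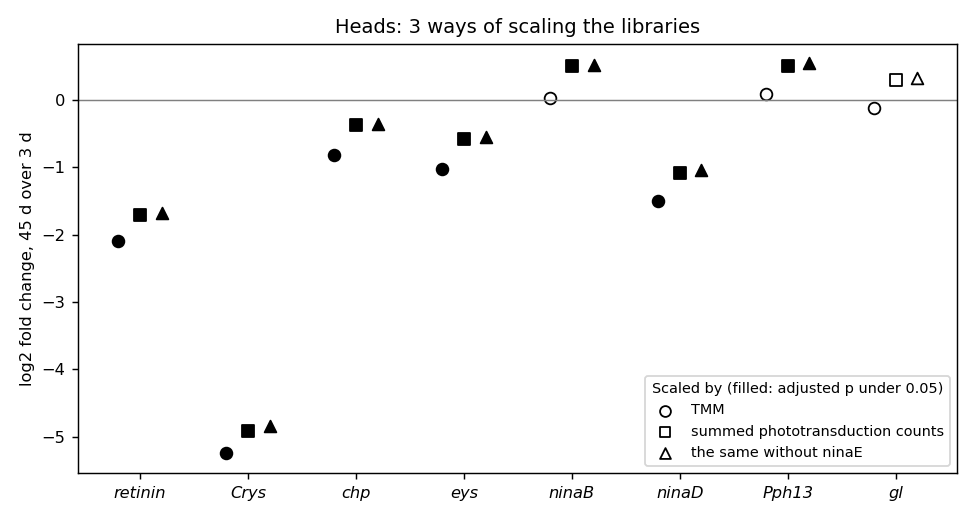
log2 fold change between 45 d and 3 d heads (y axis, above 0 means higher at 45 d) for 8 eye genes (x axis) under 3 ways of scaling the libraries. Filled symbols are past an adjusted p of 0.05 in edgeR. retinin, Crys, chp, eys and ninaD are below 0 and filled under all 3, and ninaB and Pph13 are filled above 0 under the photoreceptor scalings alone.

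In whole flies of the gcn5 mutant the carotenoid genes ninaD and ninaB and the lens gene retinin fell against WT, and the rhabdomere genes chp and eys were not called. In the transgene group ninaD and retinin also fell against WT, while chp and eys rose. Of the 8 genes tested, 3 fell and 0 rose in the gcn5 mutant against WT, beside 8.82% of all genes lower and 6.37% higher. In the transgene group against WT, 2 fell and 2 rose, beside 8.23% of all genes lower and 7.6% higher. In the transgene group against the mutant, 2 rose and 0 fell, beside 5.27% of all genes higher and 4.11% lower. DESeq2 gave the same counts, and Crys in the transgene group against the mutant was the 1 gene behind the counts of 0 with an unadjusted p under 0.05. These 3 comparisons share libraries in pairs, so they are not independent. The authors' deposited table gave the same genes at an adjusted p under 0.05 in each of them, in the same directions.

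ninaD, the carotenoid receptor, had 2.38, 3.19, 4.52 and 6.02 CPM in the transgene group, 0.608, 1.89, 6.39 and 2.14 CPM in the mutant, and 12.1, 19.2, 27.9 and 34.3 CPM in WT. These rest on 6 to 15 counts per library in the transgene group, 1 to 13 in the mutant and 30 to 78 in WT. Every WT library lay above every library of the other genotypes, which overlapped each other. The log2 change was -3.02 ± 0.39 in the mutant against WT, 8.12-fold lower (adjusted p = 5.8e-07), and without mutant replicate 3 it was -3.79. In the transgene group against WT it was -2.52 ± 0.34 (adjusted p = 2.12e-06), and in the transgene group against the mutant 0.50 ± 0.50 (adjusted p = 0.619), or 1.27 without mutant replicate 3. The authors' deposited table gave log2 changes of -3.05, -2.53 and 0.52 for the same comparisons.

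ninaB, the oxygenase, had 10.7, 12.1, 13.6 and 12.8 CPM in the transgene group, 7.90, 9.91, 7.86 and 4.70 CPM in the mutant, and 11.7, 21.6, 17.4 and 18.03 CPM in WT. The mutant libraries lay below all others, and the transgene group overlapped WT at 1 WT library, replicate 1. Its fitted log2 change was -1.18 ± 0.25 in the mutant against WT, 2.26-fold lower (adjusted p = 0.000865). In the transgene group it was 0.71 ± 0.255 against the mutant (adjusted p = 0.0827) and -0.47 ± 0.22 against WT (adjusted p = 0.154), neither of them called. Under both photoreceptor scalings the value against WT was called lower (-0.65, adjusted p = 0.0356, with ninaE in the sum), where 17.5% of all genes were called lower.

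retinin had 22.6, 32.3, 28.6 and 33.3 CPM in the transgene group, 24.9, 22.7, 25.5 and 32.9 CPM in the mutant, and 57.9, 41.8, 41.1 and 43.1 CPM in WT. Both groups with the c450 allele lay below WT without overlap and overlapped each other. On the log2 scale the change was -0.79 ± 0.16 in the mutant against WT (adjusted p = 0.000519) and -0.66 ± 0.15 in the transgene group against WT (adjusted p = 0.00239). In the transgene group against the mutant it was 0.13 ± 0.17 (adjusted p = 0.702).

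chp had 225, 220, 217 and 234 CPM in the transgene group, 147, 118, 169 and 113 CPM in the mutant, and 147, 161, 126 and 112 CPM in WT. All 4 transgene libraries lay above all 8 others, and the mutant and WT spanned the same range. edgeR gave a log2 change of 0.72 ± 0.11 in the transgene group against the mutant (adjusted p = 1.35e-05) and 0.71 ± 0.11 against WT (adjusted p = 7.67e-06). In the mutant against WT it was -0.002 ± 0.11 (adjusted p = 0.995).

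eys had 119, 129, 90.8 and 119 CPM in the transgene group, 74.2, 88.7, 79.6 and 88.0 CPM in the mutant, and 80.9, 77.9, 93.2 and 81.3 CPM in WT. The transgene libraries lay above all mutant libraries, and the lowest of them fell just below the highest of WT. The log2 change was 0.47 ± 0.10 against the mutant (adjusted p = 0.00258) and 0.46 ± 0.10 against WT (adjusted p = 0.00165). Scaled by photoreceptor transcripts, neither was called (0.17 with adjusted p = 0.283, and 0.28 with adjusted p = 0.119), while chp still was, at 0.44 and 0.54. In the muscle libraries, where chp had a median of 0.486 CPM, eys averaged from 28.5 CPM at 45 d to 37.6 CPM at 15 d. Which tissues the eys RNA of whole flies came from was not tested.

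**Figure D4:**
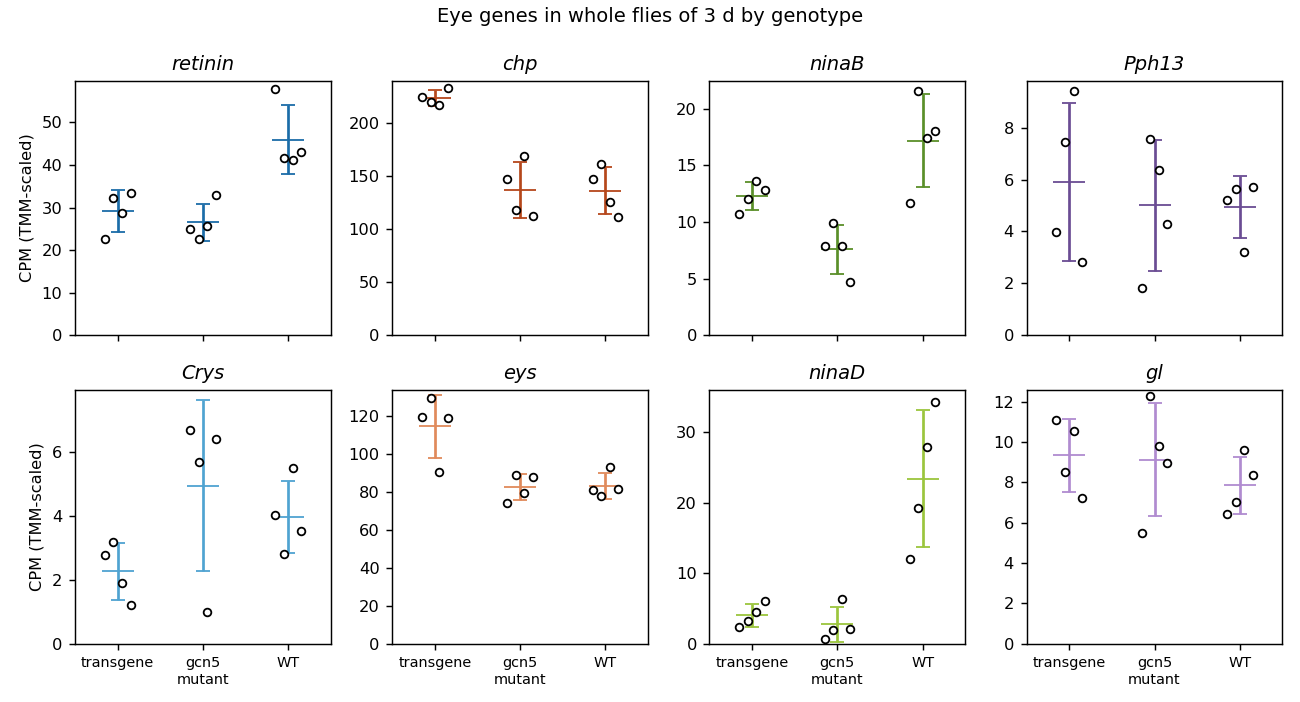
Level of 8 eye genes (y axis, CPM of TMM-scaled libraries, from 0) in whole flies of 3 d in the transgene group, the gcn5 mutant and WT (x axis). Points are the 4 libraries of a genotype, horizontal marks are means and bars are SD. All chp points of the transgene group lie between 217 and 234 CPM, above every mutant and WT point, and all ninaD points of WT lie above those of the other genotypes.

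Crys, Pph13 and gl were low in whole flies, between 2 and 28 counts per library, and were called in none of the 3 comparisons. Crys averaged 2.26 ± 0.892 CPM in the transgene group, 4.94 ± 2.67 CPM in the mutant and 3.96 ± 1.13 CPM in WT (SD, n = 4). Its log2 change of -1.09 ± 0.46 in the transgene group against the mutant (adjusted p = 0.149) was called without mutant replicate 3, the lowest of its group (-1.43, adjusted p = 0.0317), and under the photoreceptor scaling (-1.39, adjusted p = 0.0275), where 30.5% of all genes were called lower. Pph13 averaged 5.91 ± 3.06, 5.01 ± 2.52 and 4.94 ± 1.18 CPM in the transgene group, the mutant and WT. gl averaged 9.35 ± 1.80, 9.13 ± 2.81 and 7.86 ± 1.41 CPM in the same order. The genotypes overlapped for each of the 3 genes.

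Per kilobase, chp led in the transgene group at 46.0 ± 1.49 CPM per kb, above retinin at 36.6 ± 6.07 CPM per kb without overlap (SD, n = 4). In the mutant retinin at 33.2 ± 5.56 and chp at 28.1 ± 5.38 CPM per kb overlapped, and in WT retinin at 57.6 ± 10.04 lay above chp at 28.0 ± 4.54 CPM per kb in every library. ninaD was last of the 8 in the mutant, at 1.54 ± 1.41 CPM per kb, overlapping Crys, and came next after chp in WT, at 13.1 ± 5.45 CPM per kb, overlapping eys. The ratio of chp to retinin counts was 6.82 to 9.96 in the transgene group, 3.43 to 6.62 in the mutant and 2.54 to 3.87 in WT.

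In the chromophore list ninaD and ninaB were the 2 of 6 tested genes that fell in the mutant against WT. santa-maria, pinta, Pdh and rdhB had log2 changes of -0.34, -0.19, 0.01 and -0.47 that were not called. In the lens list Cpr72Ec again went against retinin, with 15.0 ± 4.25 CPM in the transgene group, 27.2 ± 8.40 CPM in the mutant and 9.79 ± 2.41 CPM in WT. It rose in the mutant against WT, by 1.44 ± 0.24 (adjusted p = 4.23e-05), and was lower in the transgene group than in the mutant, with a log2 change of -0.85 ± 0.22 (adjusted p = 0.0103). The first call held under all 17 alternatives, and the second was lost without transgene replicate 3 (adjusted p = 0.0563) and without mutant replicate 1 (adjusted p = 0.0656).

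In the rhabdomere list, 4 of 11 genes rose in the transgene group against the mutant and 0 fell, with a median of 0.17 beside -0.01 over all genes tested. Besides chp and eys these were ninaC, at 512 CPM in the transgene group and 325 CPM in the mutant (0.66 ± 0.10, adjusted p = 9.37e-06), and Cpn at 0.61 ± 0.15 (adjusted p = 0.00642). Against WT, chp, eys and ninaC were the 3 of 11 that rose. In the mutant against WT only crb of the 11 was called, at -0.29 ± 0.10 (adjusted p = 0.0453), and 15 of 17 alternatives lost that call. Of 26 phototransduction genes, 10 rose and 0 fell in the transgene group against the mutant, beside 5.27% of all genes higher and 4.11% lower. In the mutant against WT 2 rose and 7 fell, beside 6.37% of all genes higher and 8.82% lower. Over the alternatives, which include scaling by this list itself, these counts were 2 to 10 higher and 0 to 6 lower in the transgene group against the mutant, and 1 to 3 higher and 2 to 11 lower in the mutant against WT. Scaling by this list called 2.12% of all genes higher and 30.5% lower in the first comparison, and 9.06% higher and 5.09% lower in the second. Of the 5 tested genes of the rhodopsin folding list, 1 rose in the transgene group against the mutant, inaF-B, a TRP channel partner, by 1.32 ± 0.27 (adjusted p = 0.00108), and 86.6% of its exon bases are shared with other genes.

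**Figure D5:**
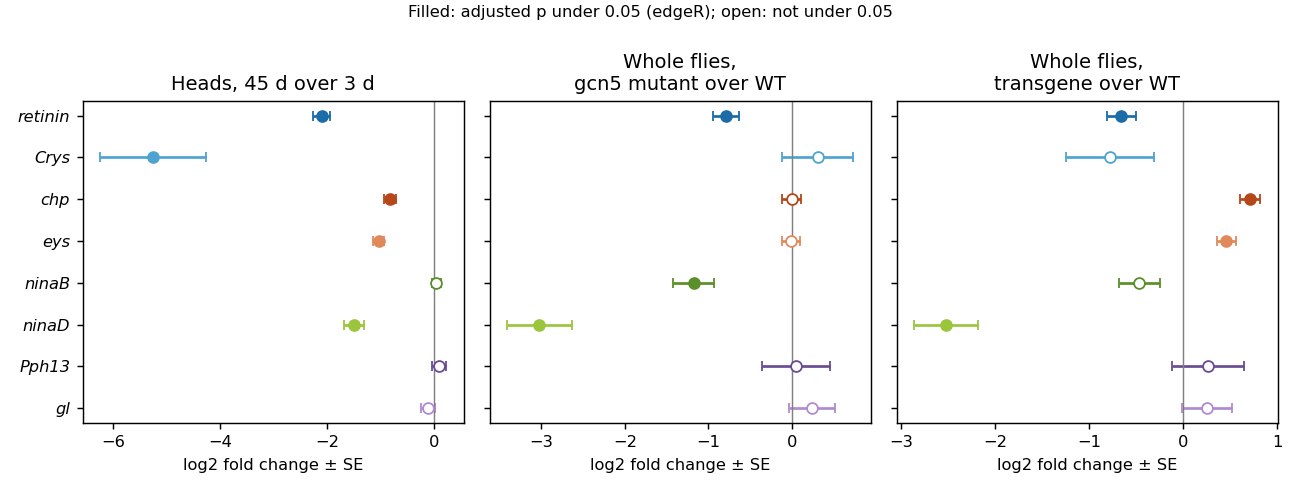
log2 fold change ± SE (x axis, right of 0 means higher in 45 d heads, the gcn5 mutant or the transgene group) of 8 eye genes (rows) in heads at 45 d over 3 d, whole flies of the gcn5 mutant over WT and the transgene group over WT. Filled points are past an adjusted p of 0.05 in edgeR. ninaD and retinin are filled left of 0 in all 3 panels, and chp and eys are filled left of 0 in old heads and right of 0 in the transgene group.

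Other markers differed between the genotypes too. The eye pigment transporter w had 65.8 ± 7.54 CPM in the transgene group, 3.61 ± 1.71 CPM in the mutant and 3.99 ± 0.910 CPM in WT (SD, n = 4), a log2 change of 4.23 ± 0.22 against the mutant (adjusted p = 2.92e-15). It was high only in the group that carries the tub-GAL4 and UAS-HA-Gcn5 constructs, and the source of its RNA there was not tested. The retinal pigment cell list it belongs to had 2 of 7 higher and 2 lower in the transgene group against the mutant, and the same counts against WT. Of all genes tested, 5.27% rose and 4.11% fell in the transgene group against the mutant, and 7.6% rose and 8.23% fell against WT. In the mutant against WT 6.37% rose and 8.82% fell. Of the gut list 5 of 6 genes fell in the mutant against WT and 5 of 6 in the transgene group against WT, with summed levels of 2349 to 3810 CPM in the transgene group, 1942 to 3522 CPM in the mutant and 6491 to 8382 CPM in WT. The trypsin gene alphaTry, for one, had 919 ± 191 CPM in the transgene group, 762 ± 261 CPM in the mutant and 2810 ± 311 CPM in WT. In the transgene group against the mutant, 2 of the 6 gut genes rose and 2 fell. Of the hemocyte list 5 of 7 fell in the mutant against WT and 2 of 7 in the transgene group against WT, and 3 of 7 rose in the transgene group against the mutant. Of the neuron list 2 of 9 fell in the transgene group against the mutant and 4 of 9 against WT, and it summed to 1513 to 1602 CPM in the transgene group, 1652 to 1816 CPM in the mutant and 1641 to 2069 CPM in WT. Over the alternatives, 2 to 7 neuron genes fell in each of these comparisons and 0 rose. Photoreceptor scaling, 1 of the alternatives, called 30.5% of all genes lower against the mutant and 17.5% against WT. Hemocyte counts ran from 3 to 5 lower in the mutant against WT and 1 to 3 higher in the transgene group against the mutant. Of the gut list 5 to 6 fell in the mutant against WT. The part of these markers in the results was not tested.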

How the data were processed

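Counts per gene were deposited as 1 file per library, for 12 libraries each of heads, muscles and whole flies, and muscles were used for levels alone. Tools named in the submitters' processing notes are DESeq2, featureCounts 2.0.1, the aligner STAR 2.7.6a and the read trimmer Trim Galore 0.6.6. The deposited whole-fly counts came from featureCounts without strand on FlyBase r6.36, per the file headers. The head and muscle files end in tallies in the form of htseq-count, 12.8 to 14.4% of a head library, which were left out, and for these files no source used here gives the counter, the build or the strand. The authors' deposited tables for whole flies give log2 fold changes and p-values, quoted where named. A symbol was found for 17358 of the 17494 gene identifiers of the head and muscle files, and for 17547 of the 17612 of whole flies.

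Genes were kept by filterByExpr (minimum count 10, total 15), scaled by TMM and tested with edgeR 4.0.16 (R 4.3.3), heads and whole flies in a fit each over all their groups, with Benjamini-Hochberg adjusted p-values, a threshold of 0.05 and common biological coefficients of variation of 0.0859 and 0.0938. The scripts were tested on simulated data. Alternatives were library scalings, no filter, DESeq2 1.42.0, robust dispersions, fits of 2 groups, a replicate block, and leaving out each replicate. The members and lists were chosen with earlier results of these data known. The lists of pathways include the members themselves, and 1 list symbol had no match. Genes named were the 9 members, the chromophore list, up to 3 genes of smallest p per list, and the 2 head genes most alike to each member among those searched, as described below. Genes of the other lists beyond those 3, Cpr72Ec, w, ninaE and Moe among them, were chosen after their values were seen. Figures were drawn with matplotlib 3.10.9.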

Additional observations from a re-analysis of the deposited data

Results flagged for a closer look

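In whole flies retinin stood at 57.93 CPM in WT replicate 1, while the other 3 WT libraries had 41.1 to 43.1 CPM. That gap passed Dixon's 95% limit in 1 of 24 gene groups of 4 libraries examined, and chance passes it in about 1 group in 20.

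The muscle libraries, which enter no test above, held reads of several eye genes, and each of these was highest in 3 d replicate 2. retinin reached 16.85 CPM there, on 39 counts, and had counts in 4 of 12 muscle libraries. chp reached 17.28 CPM on 40 counts and had counts in 9 of 12. eys had 21 to 163 counts in the 12 muscle libraries and reached 52.72 CPM, ninaD had 36 to 131 counts and reached 52.29 CPM, and ninaB had 9 to 27 counts and reached 10.8 CPM. With retinin and chp near 0 in most of these libraries, eys, ninaD and ninaB had counts in all 12 of them. The muscle libraries also held gut transcripts. The gut list summed to 8476 to 20620 CPM in 3 d and 8628 to 9235 CPM in 45 d muscles, beside 6491 to 8382 CPM in WT whole flies. Which cells the reads of eys, ninaD and ninaB came from was not tested.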

How the results depend on the processing

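Of 21 called values of the 8 genes over 6 comparisons, 16 kept their direction and call under every alternative run; the exceptions were Crys at 15 d against 3 d, retinin and ninaB at 45 d against 15 d, and eys in both transgene comparisons, given above, and the cause was not tested. Crys rests on at most 6 counts per library from 15 d on. The numbers of lower genes stayed at 5 or 6 at 15 d and at 45 d against 3 d, and at 3 in the mutant against WT, without any 1 replicate; those of the transgene group stayed at 2 higher and 2 lower against WT. At 45 d against 15 d, 0 were higher with median-of-ratios factors, no filter, DESeq2 or only the groups compared. The count was 4 under either photoreceptor scaling (which called 83.4% of all genes higher, or 75.0% without ninaE) and 0 to 1 without 1 replicate. In that comparison 0 were lower under either photoreceptor scaling and 0 to 2 without 1 replicate. With no filter 4 were lower, beside 3.34% of all genes, and with only the groups compared 3 were, beside 4.33%. At 45 d against 30 d, 1 was higher under photoreceptor scaling (55.1% of all genes). There 2 were lower with no filter (0.646% of all genes), 1 with DESeq2 (0.21%) and 0 to 1 without 1 replicate. Under either photoreceptor scaling 2 were higher at 45 d against 3 d (41.9% of all genes, or 50.7% without ninaE), 1 was higher and 1 lower in the transgene group against the mutant (with ninaE, 2.12% and 30.5% of all genes; 0 to 1 lower without 1 replicate), and 1 was higher against WT (2.93%). All 49 turned signs were of values that were not called with TMM, and some were called under the photoreceptor scalings. Counts of the lists at 45 d against 3 d ran, over the alternatives, from 0 to 5 higher and 1 to 2 lower of the 7 chromophore genes, 0 to 1 higher and 2 lower of the 3 lens genes, 0 to 2 higher and 4 to 8 lower of the 11 rhabdomere genes, 0 to 3 higher and 0 to 2 lower of the rhodopsin folding genes, 1 to 6 higher and 0 to 3 lower of the transcription factors, and 3 to 4 higher and 7 to 19 lower of the 26 phototransduction genes. Of the rhabdomere genes 2 to 4 were higher and 0 to 1 lower in the transgene group against the mutant, and 0 to 1 higher and 0 to 2 lower in the mutant against WT. With photoreceptor scaling gl was -0.00103 at 15 d and 0.304 at 45 d against 3 d; at 45 d against 15 d chp was 0.415, eys 0.673, ninaD 0.0489, Pph13 0.476 and gl 0.305; in the mutant against WT chp was 0.102 and eys 0.104; in the transgene group against the mutant retinin was -0.162, Pph13 -0.064 and gl -0.278. Without ninaE in that sum, gl was 0.333 at 45 d against 3 d; at 45 d against 15 d chp was 0.299, eys 0.552, Pph13 0.368 and gl 0.2; in the mutant against WT chp was 0.0964 and eys 0.096; in the transgene group against the mutant retinin was -0.133, Pph13 -0.035 and gl -0.249. By library size alone eys at 45 d against 15 d was 0.00372, gl at 45 d against 3 d 0.00497, and in the mutant against WT chp 0.0431 and eys 0.0351; there chp was 0.0014 with DESeq2 and 0.00425 with only the groups compared. Leaving out 1 replicate gave -0.148 to 0.0374 for eys at 45 d against 15 d, -0.0106 to 0.263 for Pph13 and -0.329 to 0.0101 for gl at 45 d against 3 d, -0.119 to 0.0852 for chp, -0.0379 to 0.0505 for eys and -0.204 to 0.281 for Pph13 in the mutant against WT, -0.0892 to 0.475 for Pph13 and -0.145 to 0.182 for gl in the transgene group against the mutant, and -0.0403 to 0.49 for Pph13 against WT. Same-numbered libraries did not deviate together, with correlations of -0.239 to 0.146 in heads and -0.0792 to 0.0294 in whole flies. Of the 12 head libraries 4, and of the 12 whole-fly libraries 0, were most alike to their own number. No pairing by number was seen, and the labels state none. The replicate block changed no count of calls, with 5 lower at 45 d against 3 d and 3 lower in the mutant, and turned Pph13 in the mutant against WT to -0.0259.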

Other observations

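Over the 12 head libraries, the genes whose levels followed each eye gene most closely, among those searched, were seldom eye genes. The search left out the members themselves, genes known only by number, noncoding RNAs and genes of the mitochondrial genome. It also left out genes with a mean log2 CPM under 3. Likeness was the Pearson correlation of log2 CPM across libraries of 4 ages that share their depth and age differences, given as a description. chp was most like prom (r = 0.950) and the rhabdomeral myosin ninaC (r = 0.927). retinin was most like the mitochondrial genes Mpcp2 (r = 0.99), a phosphate carrier, and ATPsynCF6 (r = 0.988), an ATP synthase subunit. ninaD was most like ND-13B (r = 0.974), of respiratory complex I, and mav (r = 0.965), and eys was most like the muscle gene Obsc (r = 0.974) and vig (r = 0.967). Crys was most like ed (r = 0.965) and the glial glutamate transporter Eaat1 (r = 0.961). With 105 counts in 3 d replicate 1 and at most 6 in any library from 15 d on, these values for Crys rest mostly on the 3 d libraries. With retinin, ninaB had r = -0.05, Pph13 r = -0.20 and gl r = 0.10. ninaB was most like Ctu2 (r = 0.895) and Lgr1 (r = 0.844). gl was most like SmydA-8 (r = 0.925) and the opsin gene ninaE (r = 0.907), and Pph13 like Vti1b (r = 0.867) and d4 (r = 0.847), while gl and Pph13 had r = 0.52 with each other.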
